A study of Mus musculus with 2 samples.

Results

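Integrins are surface receptors made of an alpha and a beta subunit that hold cells to the matrix around them, and laminins are the trimeric glycoproteins that form the sheet of the basement membrane. The integrin and laminin genes were taken from the authors' deposited comparison of distal with proximal regions of mouse limb-mesenchymal organoids. They were picked by gene symbol, and no measured value entered this rule. The 2 families themselves were chosen with earlier results of these data known. The rule found 30 of the 13916 listed protein-coding genes, of which 22 encode integrin subunits and 8 encode laminin chains. In a limb bud, mesenchymal cells sit in an interstitial matrix of fibronectin and collagens, while laminin sheets lie under the ectoderm and around vessels and muscle. The alpha subunit sets which ligand is bound, and the beta subunit reaches talin, kindlin and the actin skeleton through its tail.

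The organoids were grown from limb mesenchymal cells of Slc:ICR mouse embryos in medium with Fgf8b and Wnt3a for 48 h, with day 2 as the time of freezing for 5 organoids out of 4 cultures. Distal and proximal areas of 10 µm sections were chosen by ultraviolet light at 365 nm, which uncages cDNA made in place with caged primers (photo-isolation chemistry). Each side was 1 library pooled from 5 barcoded regions, and both sides share the strain, the medium, the day and the batch PIC26. No value has a check in a second library, and side and library cannot be told apart. Which regions came from the same organoid is not given in the sources used here, so p-values cover only the spread between these regions, as the authors fitted it. Fewer cells with a transcript and less transcript per cell cannot be told apart in such regions.

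The mesenchymal label was checked first. All 10 limb mesenchyme markers were listed with more than 3 counts on both sides, with means up to 260.3 normalized counts for Hoxd13. Of these markers Hoxd13, Msx1 and Lhx2 were called higher in distal, and Pdgfra and Tbx5 higher in proximal. Endothelial markers were sparse, with 4 of 7 listed, and their summed level was 2.22 normalized counts in distal and 0.809 in proximal. Behind these levels, Cdh5, Emcn, Pecam1 and Kdr had 3, 3, 1 and 0 counts in distal and 2, 0, 1 and 5 in proximal. Of the blood and macrophage markers 5 of 12 were listed, with summed levels of 1.70 in distal and 4.79 in proximal. Of the surface ectoderm markers 4 of 8 were listed, with summed levels of 0.678 and 0.933, and of the Schwann and neural crest markers 4 of 5, with 3.28 and 5.46. Every listed endothelial, blood and macrophage, and surface ectoderm marker had 3 counts or fewer in distal, so no difference between the sides is read from these sums. The muscle markers stood apart, with 9 of 9 listed and summed levels of 11.0 in distal and 108.9 in proximal. Most of both sums came from Actc1 alone, with 8.27 and 71.5. For 7 of the 9 genes the counts were 3 or fewer in distal but not in proximal.

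No integrin or laminin gene passed the authors' test between the sides, the Wald test of DESeq2 by its column names. An adjusted p under 0.05 was reached by 0 of 30, where 0.977% of all listed genes reached it. An unadjusted p under 0.05 was found for 3 of the 30 (Itga1, Itga4 and Itgb5), against 6.07% of all listed genes, and all 3 had lower values in distal, where 3.51% of all genes had such a p with a lower value in distal. The median log2 change, distal over proximal, was 0.01 for the integrins and -0.82 for the laminins, beside 0.07 for all genes. Where the mean reached 1, which leaves out genes with almost no counts, the median was -0.48 for 11 integrins (9 of them below 0), -0.92 for 5 laminins (all 5 below 0) and -0.03 for all genes (53.0% below 0). Every gene called in the authors' deposited table had a log2 change at least 3.50 times its standard error, so the precision of each gene set what could be called. At its own standard error Itgb1 would have needed a log2 change of 0.63 in size, Lamb1 0.99, Itga11 1.19, Itgav 1.38 and Itga8 1.42. For Itga6, with fewer counts, the size needed was 2.21.

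Depth limited the rest. Of the 30 genes, 14 had a mean under 1 normalized count, and 10 had 3 counts or fewer on both sides, so no difference was detectable for these 10 at this depth. The counts of single regions could be read back from the deposited means for 18 of the 30 genes, since the lowest means are whole counts divided by the size factors of the regions. The distal regions had size factors of 0.329 to 0.832 and the proximal regions 1.502 to 2.42, so the distal side held 23.3% of the depth. A level below is a mean normalized count per side, and 3 counts correspond to a level of 1.02 in distal and 0.311 in proximal. For the other 12 genes the level of each side was computed from the deposited mean and log2 change.

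Itga1 and Itga4 had the most negative log2 changes of the 30 genes. Itga1 (ENSMUSG00000042284, chromosome 13, 114953096 to 115101964, minus strand, GRCm38) encodes the alpha1 subunit, a receptor for collagens and laminins known from smooth muscle and other mesenchymal cells. From the deepest to the shallowest region, the proximal counts of Itga1 were 7, 11, 10, 7 and 3, and the distal counts were 0 in all 5 regions. Every proximal region was thus above every distal region, and equal levels on both sides would have placed about 8.84 of the 38 counts in distal. With distal set at 3 counts over its 5 regions, Itga1 would be 3.80-fold lower in distal. The 3 counts are a chosen setting and the error of the 38 proximal counts is left out, so this is no lower bound. Its log2 change was -3.57 (standard error 1.07) by the authors' deposited table, and the adjusted p of 0.0796 misses the threshold, with an unadjusted p of 0.00085.

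Itga4 (ENSMUSG00000027009, chromosome 2, 79255426 to 79333123, plus strand, GRCm38) encodes the alpha4 subunit, which binds Vcam1 and a spliced segment of fibronectin. Its proximal counts were 17, 10, 6, 5 and 9 from the deepest to the shallowest region, and its distal counts were 0, 1, 1, 0 and 0. In normalized counts the proximal regions lay between 3.07 and 7.03 and the distal regions between 0 and 1.79, with no overlap. The pooled distal level was 0.140 of the proximal level, with an exact 95% interval of 0.0165 to 0.536 that covers counting error only. By the authors' deposited table the log2 change was -2.71 (standard error 1.01), the unadjusted p 0.00737 and the adjusted p 0.338. The deposited mean of Itga4 matched several sets of counts, and the set given is the single match whose distal total lay within 1.5 counts of the one implied by the deposited log2 change.

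Such separation of the regions was seen in 2 of the 4 integrin and laminin genes with recovered counts and a mean of at least 1, and in 3.5% of all 1941 genes of that kind. Itga1 and Itga4 reached that mean only through proximal, with distal levels of 0 and 0.644. The counts of Itga4 were also settled with its log2 change, so this share adds no separate support to the log2 changes. The exons of 9 of the 30 genes overlap those of another gene. The partner lies on the same strand for Itga1 (Gm49395), Itga10 (Gm42957) and Itgam (Gm49368). It lies on the opposite strand for Itga4 (Cerkl), Itga7 (Mettl7b), Itga8 (E030013I19Rik), Itgav (Gm13684), Lama2 (Gm48084) and Lama3 (Gm29200). The strand of the counting is not given in the sources used here, so reads of these pairs may not be separable. Gm42957 had a mean of 0.153 normalized counts, and the other partners were not analysed here.

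**Figure D1:**
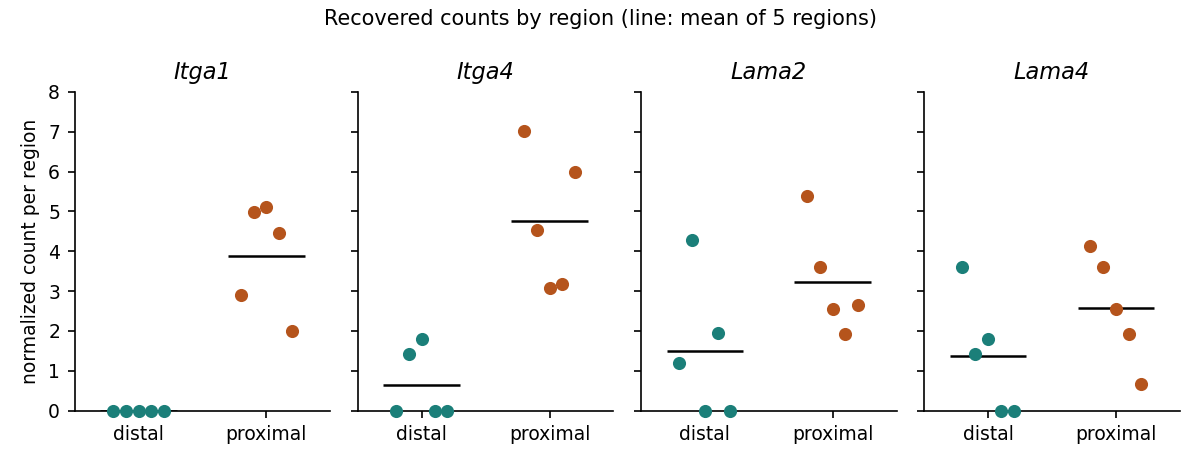
Normalized counts of Itga1, Itga4, Lama2 and Lama4 in each of the 5 distal (green) and 5 proximal (orange) regions, ordered left to right by falling depth, with a line at the mean of the 5 regions. The proximal values of Itga1 and Itga4 all lie above the distal ones, while those of Lama2 and Lama4 overlap them.

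Some muscle markers were called between the sides. The calls in the authors' deposited table include 4 of the 9, all higher in proximal (Actc1, Myl1, Myog and Tnnt1), where 0.582% of all listed genes were. Des, Chrna1, Myf5, Myod1 and Pax7 were not called, and Pax7 had only 2 counts. From the deepest to the shallowest proximal region the counts of Myod1, a regulator of muscle fate, were 18, 5, 5, 3 and 1, with 1 count in all of distal. Those of Myf5, another such regulator, were 12, 4, 4, 0 and 7, with 0 in distal. Itga7, the laminin receptor alpha subunit of muscle fibres, had 3 proximal and 0 distal counts and allowed no comparison. Of the 4 perivascular markers, Acta2 alone was called, at a log2 change of -4.22 by the authors' deposited table, while Cspg4 and Pdgfrb stood at 0.21 and 0.03 there. Rgs5 had 4 distal and 6 proximal counts, and its log2 change was above 0. The summed level of the perivascular list was 32.7 in distal and 53.8 in proximal, and its median log2 change was 0.12. The part of muscle or perivascular cells in the values of Itga1 and Itga4 was not tested.

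None of the other collagen receptors had an unadjusted p under 0.05. Itga11 (ENSMUSG00000032243, chromosome 9, 62677826 to 62783982, plus strand, GRCm38) encodes the alpha11 subunit, a fibrillar collagen receptor of mesenchymal cells. Its level was 13.7 in distal and 20.5 in proximal. Its log2 change was -0.58 (standard error 0.34, adjusted p 0.991) by the authors' deposited table, and the 95% interval ran from -1.25 to 0.08. Itga2, a collagen receptor known from epithelia and platelets, had 1 distal and 5 proximal counts. Itga10, the collagen receptor of chondrocytes, had 0 distal and 2 proximal counts. No size of difference can be read from so few counts for Itga2 and Itga10, and none of these 3 genes was tested against Itga1.

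None of the alpha subunits that bind the RGD motif of fibronectin and vitronectin passed the test, and their intervals include 0. Itgav (ENSMUSG00000027087, chromosome 2, 83724397 to 83806916, plus strand, GRCm38), the alpha subunit shared by several vitronectin and latent TGF-beta receptors, had levels of 15.4 in distal and 13.7 in proximal. Its change by the authors' deposited table was 0.16 on the log2 scale (standard error 0.39, 95% interval -0.61 to 0.94). Itga5, the alpha subunit of the main fibronectin receptor, had levels of 6.75 and 6.63 and a 95% interval of -0.94 to 0.99. Changes of nearly 2-fold in either direction therefore lie inside the interval of Itga5. Itga8 (ENSMUSG00000026768, chromosome 2, 12106632 to 12301922, minus strand, GRCm38), the receptor for nephronectin, had a level of 8.74 in distal and 12.2 in proximal. By the authors' deposited table the log2 change of Itga8 was -0.48 (standard error 0.41, 95% interval -1.27 to 0.32). Itga2b, the platelet subunit, had 2 proximal counts and none in distal, which allowed no comparison.

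Of the remaining alpha subunits, Itga9, a receptor for tenascin C and osteopontin, had levels of 4.15 in distal and 6.72 in proximal, and a 95% interval of -1.81 to 0.41. Itga6, a laminin receptor, had levels of 3.27 and 3.80 with an interval of -1.46 to 1.02. Itga3, another laminin receptor, had 3 proximal counts and none in distal. The leukocyte subunits Itgal, Itgam and Itgae had 1 distal count each and between 1 and 3 proximal counts.

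Among the beta subunits, Itgb1 was the most precisely measured of the 30 genes. Itgb1 (ENSMUSG00000025809, chromosome 8, 128685654 to 128733200, plus strand, GRCm38) encodes the shared partner of the collagen, laminin and main fibronectin receptors. Its level was 62.6 in distal and 63.8 in proximal, and about 183 distal and 616 proximal counts lie behind these levels. A log2 change of -0.03 (standard error 0.18) was fitted in the authors' deposited table, and the 95% interval ran from -0.38 to 0.33. Itgb8, which pairs with the alphav subunit to release active TGF-beta, had levels of 8.87 and 8.90 and a wider interval, from -0.98 to 0.97.

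Itgb5 (ENSMUSG00000022817, chromosome 16, 33829665 to 33949338, plus strand, GRCm38), the beta subunit of a vitronectin receptor, did not pass the test either. Its level was 3.70 in distal and 8.06 in proximal. By the authors' deposited table the log2 change was -1.12 (standard error 0.55), the unadjusted p 0.0416 and the adjusted p 0.85. Its partner Itgav had a log2 change of the opposite sign, and Itgb5 was not tested against Itgav or the other beta subunits. The beta subunits Itgb2, Itgb3 and Itgb6, known from leukocytes, platelets and epithelia, had 2, 3 and 2 proximal counts and none in distal.

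**Figure D2:**
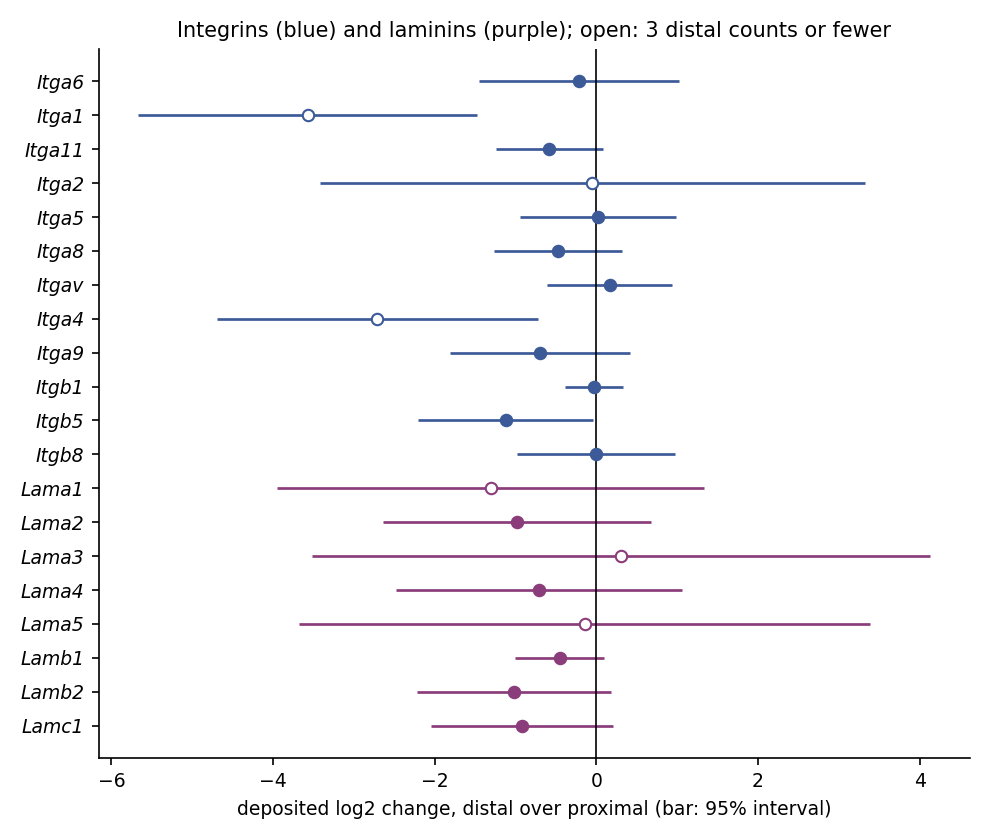
Deposited log2 change, distal over proximal, with its 95% interval for the 20 integrin (blue) and laminin (purple) genes that had more than 3 counts on at least 1 side, and open points where distal had 3 counts or fewer. The interval of Itgb1 is the narrowest, from -0.38 to 0.33, and those of Itga1, Itga4 and Itgb5 lie below 0.

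Of the 8 laminin chain genes, 7 had a log2 change below 0, where 45.5% of all listed genes had one. For 3 of the 8 the distal side had 3 counts or fewer, where the sign says little. All 5 with a mean of at least 1 were below 0, beside 53.0% of all genes with such a mean. None passed the test, and none had an unadjusted p under 0.05. Summed over the 8 genes the level was 38.7 in distal and 59.9 in proximal. The chains assemble as an alpha, a beta and a gamma chain, and Lamc1 encodes the gamma chain of most laminins. Lamb1 (ENSMUSG00000002900, chromosome 12, 31265234 to 31329644, plus strand, GRCm38), a beta chain of early embryonic laminins, had a level of 26.7 in distal and 36.6 in proximal. For Lamb1 the authors' deposited table gave -0.45 on the log2 scale (standard error 0.28, unadjusted p 0.107), and the 95% interval ran from -1.01 to 0.10.

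Lamc1 had levels of 4.00 in distal and 7.57 in proximal, and by the authors' deposited table its log2 change was -0.92 (standard error 0.57). Lamb2, the beta chain of laminins at synapses and in mature vessels and kidney, had levels of 3.87 and 7.84, and by the authors' deposited table its log2 change was -1.02 (standard error 0.62). Their 95% intervals, from -2.04 to 0.20 and from -2.22 to 0.19, both include 0.

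The alpha chain genes had few counts. Lama2, the alpha chain of muscle laminin, had distal counts of 1, 3, 0, 1 and 0 and proximal counts of 13, 8, 5, 3 and 4, each from the deepest to the shallowest region. This set was chosen among several matches by its distal total, as for Itga4. Lama4, an alpha chain of vessel and mesenchymal laminins, had distal counts of 3, 1, 1, 0 and 0 and proximal counts of 10, 8, 5, 3 and 1. For both genes the normalized values of the sides overlap. The pooled distal level was 0.499 of the proximal one for Lama2 (exact 95% interval 0.152 to 1.29) and 0.610 for Lama4 (0.184 to 1.61), with counting error only.

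Lama1, an alpha chain of early embryonic basement membranes, had 1 distal and 12 proximal counts, with a ratio of 0.275 and an interval of 0.00643 to 1.86. Lama5, the widespread alpha chain of later basement membranes, had 1 distal and 6 proximal counts. Lama3, the alpha chain of epithelial laminins, had 1 distal and 4 proximal counts. By the authors' deposited table the log2 change of Lama3 was 0.31, the only positive one of the 8 chains, and its ratio of 0.824 has an interval of 0.0167 to 8.33.

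To set genes beside each other, the deposited mean was divided by the exon length of the gene in GENCODE M21, which gives a level in normalized counts per kb. This assumes that counts come from the whole transcript, which is not given in the sources used here. If they come from transcript ends only, the division does not hold, and the undivided means give another order. By mean, Lamb1 at 31.6 normalized counts stood above Itga11 at 17.1. Itgb5 at 5.88 stood below Itgav, Itga8 and Itga5 at 14.6, 10.4 and 6.69. Per kb, Itgb1 stood first at 15.5, followed by Itga11 at 3.33 and Lamb1 at 3.19. Itgb5, Itga8, Itgav and Itga5 followed at 1.66, 1.42, 1.356 and 1.356 counts per kb. Lamb2 at 0.962 and Lamc1 at 0.6997 counts per kb were below Lamb1, and no laminin alpha chain passed the 0.163 counts per kb of Lama4. This order is of the mean over both sides and changed in distal alone. There Lamb1 at 2.69 stood above Itga11 at 2.66, and Itgb5 at 1.04 stood below Itgav, Itga5 and Itga8 at 1.43, 1.37 and 1.19 counts per kb. Neighbours in this order were not tested against each other, since the table gives no spread of a level.

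**Figure D3:**
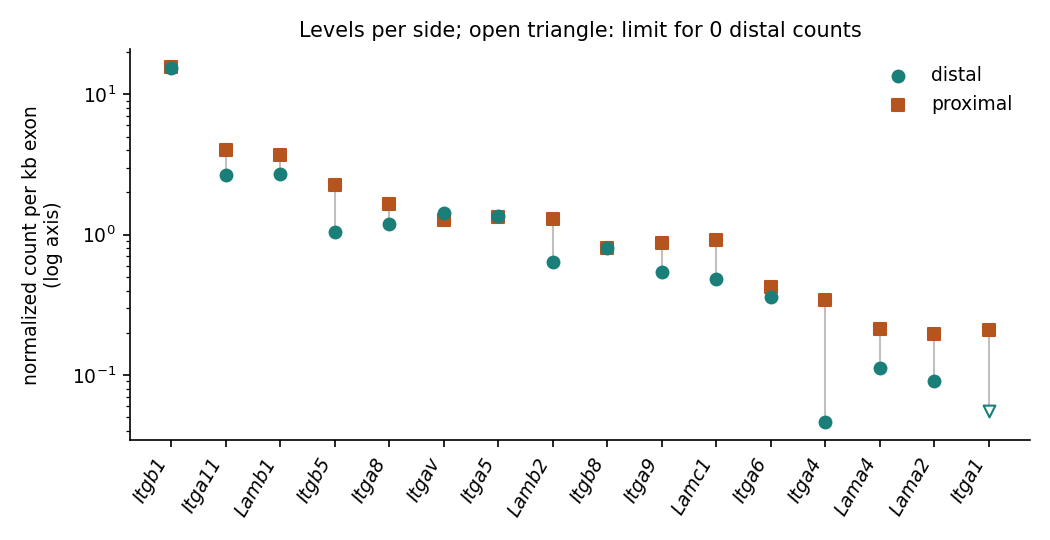
Level in normalized counts per kb of exon (log axis) in distal (green circles) and proximal (orange squares) for the 16 integrin and laminin genes with a mean of at least 1, ordered by their mean per kb. Itgb1 lies highest with both sides together, and the open triangle marks the limit that 0 distal counts allow for Itga1.

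Genes of the same adhesion system were counted from 3 lists drawn up by function, with earlier results of these data known. The basement membrane list, the partners of laminin, had 0 of 19 genes called, beside 0.977% of all listed genes. An unadjusted p under 0.05 was found for 1 of the 19 (Fras1, lower in distal), beside 6.07% of all listed genes. The list had 7 log2 changes above 0 and 12 below, with a median of -0.28. Agrn, a heparan sulfate proteoglycan, had levels of 33.7 in distal and 28.2 in proximal. Npnt, the ligand of the alpha8 subunit, had levels of 24.6 and 25.1. Dag1, which encodes dystroglycan, a laminin receptor outside the integrin family, had levels of 22.7 and 25.7. The collagen IV genes Col4a1 and Col4a2, a head-to-head pair that encodes the other basement membrane network, stood at 0.12 and -0.47 on the log2 scale by the authors' deposited table, and they were chosen here after their values were seen.

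Of the interstitial ligands of integrins 6 of 22 listed genes were called, all 6 higher in proximal, where 0.582% of all genes were. The median of this list was -0.55. A mean of at least 10 was reached by 12 of these 22 genes, by 6 of the 19 basement membrane genes and by 3757 of all 13916 listed genes. The shares called were not tested against each other. Tnc, which encodes tenascin C, a ligand of the alpha9 subunit, had levels of 6.79 in distal and 23.9 in proximal. By the authors' deposited table its log2 change was -1.81 (standard error 0.42, adjusted p 0.0035). Fbn2, a microfibril protein with an RGD motif, had levels of 87.4 and 156.2, and by the authors' deposited table its log2 change was -0.84 (standard error 0.16, adjusted p 8.91e-05). Col5a1, a fibrillar collagen chain, had levels of 60.1 and 123.8, and by the authors' deposited table its log2 change was -1.04 (standard error 0.19, adjusted p 1.23e-05). The other 3 were Col1a1, Col1a2 and Col3a1, chains of the fibrillar collagens that the alpha11 and alpha1 subunits bind, with distal levels of 161.9, 192.3 and 50.7 and proximal levels of 370.1, 288.6 and 155.6. Col2a1, the cartilage collagen, had levels of 176.3 and 119.0 in distal and proximal, and by the authors' deposited table its log2 change was 0.57 (standard error 0.48) and not called.

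Ligands and receptors can be read side by side, from the same comparison and the same regions. Fn1, which encodes fibronectin, stood at -0.10 on the log2 scale (standard error 0.14) by the authors' deposited table, beside 0.02 for Itga5 and -0.03 for Itgb1. Vcam1, the cell surface ligand of the alpha4 subunit, stood at -1.11 there (standard error 0.51, adjusted p 0.716), beside -2.71 for Itga4. Fn1 and Vcam1 were chosen for this reading after their values were seen. For Tnc, which was called, the value was -1.81 beside -0.70 for Itga9, which was not. Whether a ligand and its receptor changed by different amounts was not tested.

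Of the 24 cytoplasmic adhesion adaptors reported here, which are not the whole list, 0 were called, and 5 had an unadjusted p under 0.05, 3 with higher and 2 with lower values in distal. Of all listed genes 0.977% were called and 6.07% had such an unadjusted p. A mean of at least 10 was reached by 14 of the 24 adaptors and by 3757 of all 13916 genes, and these shares were not tested. The median log2 change of the adaptors was 0.03, with 12 values above 0 and 12 below. Tns3, a tensin that links integrin tails to actin, had levels of 74.0 and 77.7. Actn1, an alpha-actinin, had levels of 50.1 and 41.3. Parva, which encodes alpha-parvin, a partner of integrin-linked kinase, had levels of 38.7 in distal and 23.8 in proximal, and by the authors' deposited table its log2 change was 0.70 (standard error 0.27, adjusted p 0.409).

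**Figure D4:**
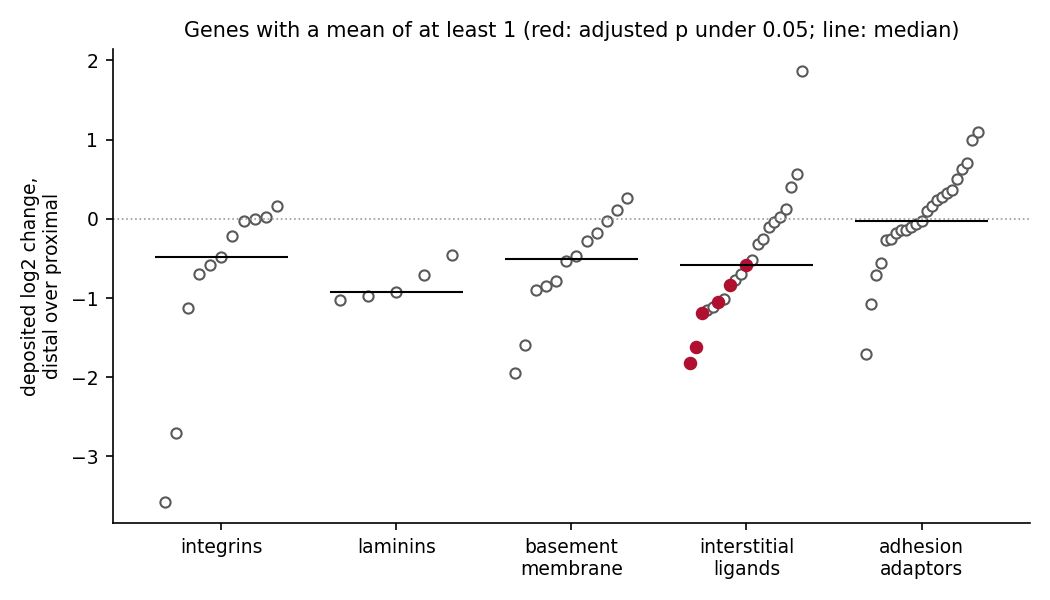
Deposited log2 change, distal over proximal, of the integrins, laminins and the 3 lists of related genes, for genes with a mean of at least 1, with a line at the median of the points shown and red points for an adjusted p under 0.05. Of the genes shown, the red points are 6 interstitial ligands, all below 0.

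For genes with a few counts the sign of the log2 change does not follow the counts. A gene with 1 proximal count and none elsewhere stands at 1.19 on the log2 scale by the authors' deposited table. Among the integrins and laminins, 8 genes had counts in proximal regions only, and 6 of these 8 have a positive log2 change there, Itgb6 with 0.62 and Itga10 with 0.60 among them. All 8 except Itga1 had 3 counts or fewer.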

How the data were processed

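The file analysed was the authors' deposited table of distal against proximal, 1 line per protein-coding gene. Its column names are those DESeq2 gives, per the file headers. The mean is a signal in normalized counts that the authors averaged over all regions, and the log2 change, its standard error and the statistic (a score) were fitted by the authors. The p-value and adjusted p are those the authors deposited. The submitters' processing notes name mm10 and GRCm38, which are the same assembly, and the aligner, counting and annotation are not given in the sources used here. Coordinates and exon lengths are from GENCODE M21, in which all 30 genes matched by identifier.

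No count test was run, since the table holds no value per sample. Size factors were taken from 10 lowest means shared by at least 20 genes, and region counts from sums of these steps up to a mean of 3 with a tolerance of 1e-09. A single match was found for 4624 of 4624 genes with a mean up to 1.2, 989 of 1031 between 1.2 and 2, and 301 of 1006 between 2 and 3. In simulated region counts of distal against proximal 836 of 836 single matches between means of 1.2 and 2 were right, and 175 of 175 between 2 and 3. The simulated means were built with the same size factors that were used to read them back, so a single match had to be right. This simulation therefore cannot test the size factors or the side given to each region. Several matches were settled where 1 lay within 1.5 distal counts of the computed value, for 312 of the 705 genes with several between means of 2 and 3, Itga4 and Lama2 among them. Of the 301 genes with 1 match there, 99.0% met this tolerance, and the settling itself was not simulated. The deposited log2 change differed from the log2 ratio of the recovered side levels by a median of 0.12 (95th percentile 0.30) over 1047 genes. These had means of 1 to 3 and more than 3 counts on both sides. The 12 integrin and laminin genes with computed levels had means above 3, where this difference was not measured. Intervals are Clopper-Pearson and cover counting error only, and those of log2 changes are 1.96 standard errors. Region totals were about 46991 to 118978 counts in distal and 214774 to 345649 in proximal. A search with BLAST 2.17.0 found no copy of a member's last 300 bases in another gene's transcript at 95% identity over 200 bases.

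The integrins, laminins and all lists were chosen with earlier results of these data known. One member of the adhesion adaptor list is not reported here, so counts, medians and points for that list leave it out. The genes named are members with an unadjusted p under 0.05 or a mean of at least 10 in full and the other members by level or count, and of each list the called genes and, for the adhesion lists, the 3 with the highest mean. Alternatives were the threshold, the adjustment, filters on low values, centring, a size limit and a pseudocount of 1, and, chosen after seeing the data, a pseudocount on recovered levels and leaving out each region, using Python 3.11.15, numpy 2.4.6, pandas 2.3.3 and scipy 1.17.1.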

Additional observations from a re-analysis of the deposited data

How the results depend on the processing

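The number of called integrin genes, laminin genes, basement membrane genes and the adhesion adaptors reported here was 0 under each of the 4 alternatives that could have raised it (adjustment over the listed genes, adjustment over means of at least 10, and centring on all genes or on those with such means), although only 4 integrins and 1 laminin had a mean of at least 10. A threshold of 0.01 and a minimum log2 size of 1 could only lower these counts. The called interstitial ligands numbered 4 to 6 over these 6 alternatives, all higher in proximal. The median log2 change of the integrins was 0.01 and became -0.48 with a mean of at least 1, -0.25 with a mean of at least 10, -0.058 with centring on all genes, 0.0023 with a pseudocount of 1 and -0.26 with that pseudocount on recovered side levels. The median of the laminins was -0.82 and became -0.92, -0.45, -0.88, -0.496 and -0.68 under the same settings. The filters leave fewer genes, centring subtracts the median of all genes (0.07), a pseudocount draws the changes of low genes towards 0, and recovered levels place genes with proximal counts only below 0. A pseudocount of 1 moved the log2 change of Itga1 to -1.82 (-2.29 on recovered levels), of Itga4 to -1.73 (-1.81), of Myl1 to -3.08, of Myog to -2.72 and of Tnnt1 to -2.64. Leaving out 1 region at a time, chosen after seeing the data, was possible only for genes with recovered counts. With distal set at 3 counts, Itga1 was then 2.72-fold to 4.26-fold lower in distal. Since all distal counts of Itga1 were 0, no such removal could have made its regions overlap. The distal over proximal ratio was 0.0867 to 0.196 for Itga4, 0.262 to 0.618 for Lama2 and 0.341 to 0.739 for Lama4, lowest without 1 distal region that held 1, 3 and 3 of the counts. No paired analysis was possible because the deposited comparison gives no value per sample and the recovered regions carry no number. Depth limits the distal side most.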
